A study of Mus musculus with 15 samples.

Results

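The transcripts described here encode signal transducers and activators of transcription (STATs) and the proteins that feed back on them, the suppressors of cytokine signaling (SOCS) and Cish. They were taken as all noncontrol probes whose gene name on the array equaled Stat2, Stat3, Stat5a, Stat5b, Stat6, Socs1, Socs2, Socs3 or Cish, which gave 15 of 41174 probes for the 9 genes. RNA came from uteri of ovariectomized adult mice of 10 or more weeks, rested for 10 to 14 days and injected intraperitoneally with 100 μl of saline (with ethanol, per the study's methods), alone or with 250 ng of estradiol (E2) or estriol (E3, known as a weak estrogen). There were 3 arrays for each of 5 groups: saline at 24 hr, E2 at 2 hr, E3 at 2 hr, E2 at 24 hr and E3 at 24 hr. The saline uteri were collected only at 24 hr and served as the control for both times. In the 2 hr comparisons with saline, compound and time since injection therefore cannot be told apart. The strain of 4 groups was C57bl6/J, whereas the mice given E2 for 2 hr were C57bl6/Jx129 with a WT Esr1 genotype. The labels describe each uterus as homogenized on its own, and the study's methods describe pooled tissue, so it cannot be said that the 3 arrays of a group stood for 3 animals, and p-values measured the spread between arrays.

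Cytokines and hormones such as leukemia inhibitory factor, interleukin 6, prolactin and growth hormone bind receptors that carry Janus kinases, which phosphorylate STAT proteins so that they dimerize, enter the nucleus and bind palindromic DNA sites. Socs1, Socs2, Socs3 and Cish are classical STAT targets whose proteins bind the receptors or the kinases and shut the signal off. In the uterus, Stat3 is required for implantation, and Stat5 proteins carry prolactin and growth hormone signals. The arrays measured transcripts and not phosphorylation, and in RNA of a whole tissue fewer cells of a type and less RNA per cell cannot be told apart.

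Stat5b, Stat5a and Stat3 are neighboring genes in that order on chromosome 11, and several probes of this locus gave different results although they carry the same gene name. For that reason the first 30 bases of these 60-base probes are shown in lower case, with the positions from the array annotation (build mm7). No part is in capitals because no single stretch of them mattered, and exons and UTRs were not assigned in this build.
Stat5b A_52_P53698, chr11:100889824-100889883, minus strand: tttagtgtcgaggcagattagtatatagcc
Stat5b A_51_P281938, chr11:100896379-100897427, minus strand: tgcttggaagtttgactctcaggagagaat
Stat5b A_52_P663027, chr11:100930445-100930504, minus strand: ctgctagtaatcctgacccactacttgaaa
Stat5a A_51_P152765, chr11:100993869-100993928, plus strand: gaggaaacctggggcgaaaaacctgtagca
Stat3 A_52_P569499, chr11:100994187-100994246, minus strand: atccatcacacagcccagtaaaccaggaag
Stat3 A_51_P201480, chr11:100997323-100997382, minus strand: cactctgtgagctgataccccaggctggga
The 60 bases of the Stat5b probe A_51_P281938 are annotated to a span of 1049 bases, so its match to the genome is split. The Stat3 probe A_52_P569499 lies 258 bases from the Stat5a probe, on the opposite strand, and 3076 bases from the other Stat3 probe. Whether it measures Stat3 could not be settled here, and it carries that name from the array annotation. Socs2 was also measured by 2 probes, 24259 bases apart on chromosome 10.

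Promoters were searched for the STAT palindrome TTCNNNGAA and the full estrogen response element, GGTCA and TGACC with 3 bases between them, in RefSeq windows of 250 bases before to 50 bases after a transcript start (build GRCm38.p6). Both motifs read the same on either strand, and neither holds the other. The STAT palindrome occurred in 8.3% of 32851 windows and the estrogen response element in 0.07%. Of the 9 genes, 8 had a window (10 windows in all) and Socs2 had none in the table. A STAT palindrome was found for Cish and Socs3, and the full estrogen response element was in none of the 10 windows. The study's authors report an estrogen response element in the Stat5a promoter from their earlier work. Imperfect elements, or elements outside these windows, were not searched for here. The stretches with the palindromes in capitals are shown because these letters are how STAT dimers are known to recognize feedback genes, and a match is a description of the sequence and not a site shown to be bound.
Cish, chr9:107296539-107296678, plus strand, from base -120 to base 20: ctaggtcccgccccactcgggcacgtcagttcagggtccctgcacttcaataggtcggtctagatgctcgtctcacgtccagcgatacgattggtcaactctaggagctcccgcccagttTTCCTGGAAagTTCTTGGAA
Socs3, chr11:117969501-117969530, minus strand, from base -164 to base -135: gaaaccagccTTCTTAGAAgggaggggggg

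All 15 probes were well above background on all 15 arrays and saturated on none. A level is the log2 of a processed signal after division by the 75th percentile of its array, so levels can be compared between arrays but not between probes. A probe was called when limma's p was below 0.001 and the change at least 2-fold, the cutoffs of the study's heat map. Over the series, 77.69 to 81.62% of spots were well above background, and arrays of a group correlated at 0.9819 or higher. The E2 2 hr arrays stood apart in strain, slides, scanner and scan day, which cannot be told apart from the treatment. The saline, E2 24 hr and E3 24 hr arrays shared no slide, so slide cannot be told apart from treatment there either. Uterine epithelial (8 of 8), stromal (8 of 9) and smooth muscle (8 of 8) markers were well above background on all arrays. The summed level of the epithelial markers was 5.70 to 6.25 at 2 hr, 6.26 to 6.72 in saline and 6.95 to 7.39 at 24 hr, and that of the stromal markers was 7.56 to 7.93, 7.97 to 8.23 and 8.55 to 8.78. Both sums thus set apart the 2 hr arrays, the saline arrays (also collected at 24 hr) and the treated 24 hr arrays. Smooth muscle sums were 8.19 to 8.42 at 2 hr and in saline and 8.68 to 9.01 at 24 hr. Skeletal muscle sums were 1.73 to 1.86 in saline and 2.39 to 3.44 at 24 hr. At 2 hr they were 1.12 to 1.45 with E2 and 1.84 to 2.03 with E3. Fat marker sums were 3.74 to 4.38 with E2 at 24 hr and 4.24 to 6.62 in saline, and the part of these cell types in the results was not tested. Hepatocyte markers were unequal between groups: their summed log2 level was 3.08 to 4.84 on the saline arrays, 1.43 to 2.49 in E3 2 hr, and 0.15 or lower in the other groups (5 of 14 markers well above background on every array). Exocrine pancreas markers (5 of 8 well above background on every array) reached 9.23 on E3 2 hr replicate 2 and 8.14 on E2 24 hr replicate 2, against 3.61 or lower elsewhere, and the part of these tissues in the results was not tested.

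At 2 hr, 8 of the 15 probes rose over saline with E2, with the names Stat5a, Stat5b, Stat3, Socs1, Socs2 and Socs3. With E3, 7 of them rose. Stat3 is among these only through probe A_52_P569499. None of the 15 fell, where 10.5% of all probes fell with E2 and 9.1% with E3. The largest changes among the 9 genes were those of Socs1 and Socs3, from 9.20-fold to 13.8-fold. Of all probes tested, 10.7% rose with E2 at 2 hr and 4.68% rose with E3. Taking the brightest probe of each gene, 5 of 9 genes rose with E2 and 4 of 9 with E3, and the median log2 change of the 9 was 1.26 with E2 and 0.85 with E3, against -0.07 and -0.11 over all probes. On the slide that held the E3 2 hr arrays with 1 saline array, the log2 difference was 3.67 for Socs1, 3.40 for Socs3, 1.83 for Socs2 and 2.22 for Stat5a. With slide as a fixed block, the E3 2 hr difference rested on that same 1 saline array. In this fit the calls of Stat3 A_52_P569499, Stat5b A_51_P281938 and Socs2 A_52_P84037 were lost, at log2 changes of 1.10 to 1.35.

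Among the STAT factors, Stat5a, a mediator of prolactin and growth hormone signals, showed the largest difference from saline at 2 hr with each compound. Its levels were 0.74, 0.68 and 0.61 on the saline arrays, 2.46, 3.49 and 3.38 with E2 at 2 hr, and 2.97, 3.07 and 2.45 with E3 at 2 hr. Every 2 hr array was above every saline array, and the 2 compounds overlapped. The log2 change was 2.44 (SE 0.247, 5.41-fold, limma adjusted p = 3.83e-06) with E2 and 2.15 (4.44-fold, adjusted p = 1.77e-05) with E3. At 24 hr the levels were 1.51, 1.62 and 1.31 with E2, still above all saline arrays, and 0.71, 0.85 and 1.20 with E3, which overlapped saline. Neither 24 hr difference was called, at log2 0.80 (95% interval 0.26 to 1.34, adjusted p = 0.0136) for E2 and 0.24 (-0.29 to 0.78) for E3.

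Stat5b, the close relative of Stat5a, was measured by 3 probes. On the brightest one, the levels were 2.89, 2.87 and 2.87 in saline, 3.94, 4.30 and 4.16 with E2 at 2 hr, and 3.40, 3.28 and 3.16 with E3 at 2 hr. The 3 groups did not overlap, with E2 highest and E3 between E2 and saline. It rose by log2 1.26 with E2 (SE 0.122, 2.40-fold, limma adjusted p = 2.63e-06), and the E3 difference of 0.40 (95% interval 0.14 to 0.67, adjusted p = 0.0154) was not called. At 24 hr all arrays of both compounds were below saline, at 2.50, 2.10 and 2.21 with E2 and 2.51, 2.43 and 2.70 with E3. Those differences, log2 -0.60 (adjusted p = 0.000998) for E2 and -0.33 (adjusted p = 0.0562) for E3, were under 2-fold and were not called.

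The other Stat5b probes did not give the same account. The split probe A_51_P281938 was at -5.17, -4.73 and -4.98 in saline, -4.06, -3.37 and -3.61 with E2 at 2 hr, and -3.92, -3.75 and -3.77 with E3 at 2 hr. Here both compounds were above saline and overlapped each other. It rose by log2 1.28 (SE 0.152, limma adjusted p = 1.45e-05) with E2 and by 1.15 (adjusted p = 5.72e-05) with E3, and at 24 hr its E2 difference was 0.70 (adjusted p = 0.0016), opposite in sign to that of the brightest probe. This probe was dim, and with normexp background correction its 2 hr differences were 0.98 (limma adjusted p = 0.119) with E2 and 0.83 (adjusted p = 0.234) with E3 and were no longer called. Probe A_52_P663027, 40561 bases from the brightest one, was at -2.46, -2.43 and -2.39 in saline, -2.05, -1.43 and -2.0 with E2 at 2 hr, and -2.46, -2.55 and -3.11 with E3 at 2 hr. It was called in neither 2 hr comparison, at log2 0.60 (adjusted p = 0.0273) for E2 and -0.28 (adjusted p = 0.3) for E3.

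**Figure D1:**
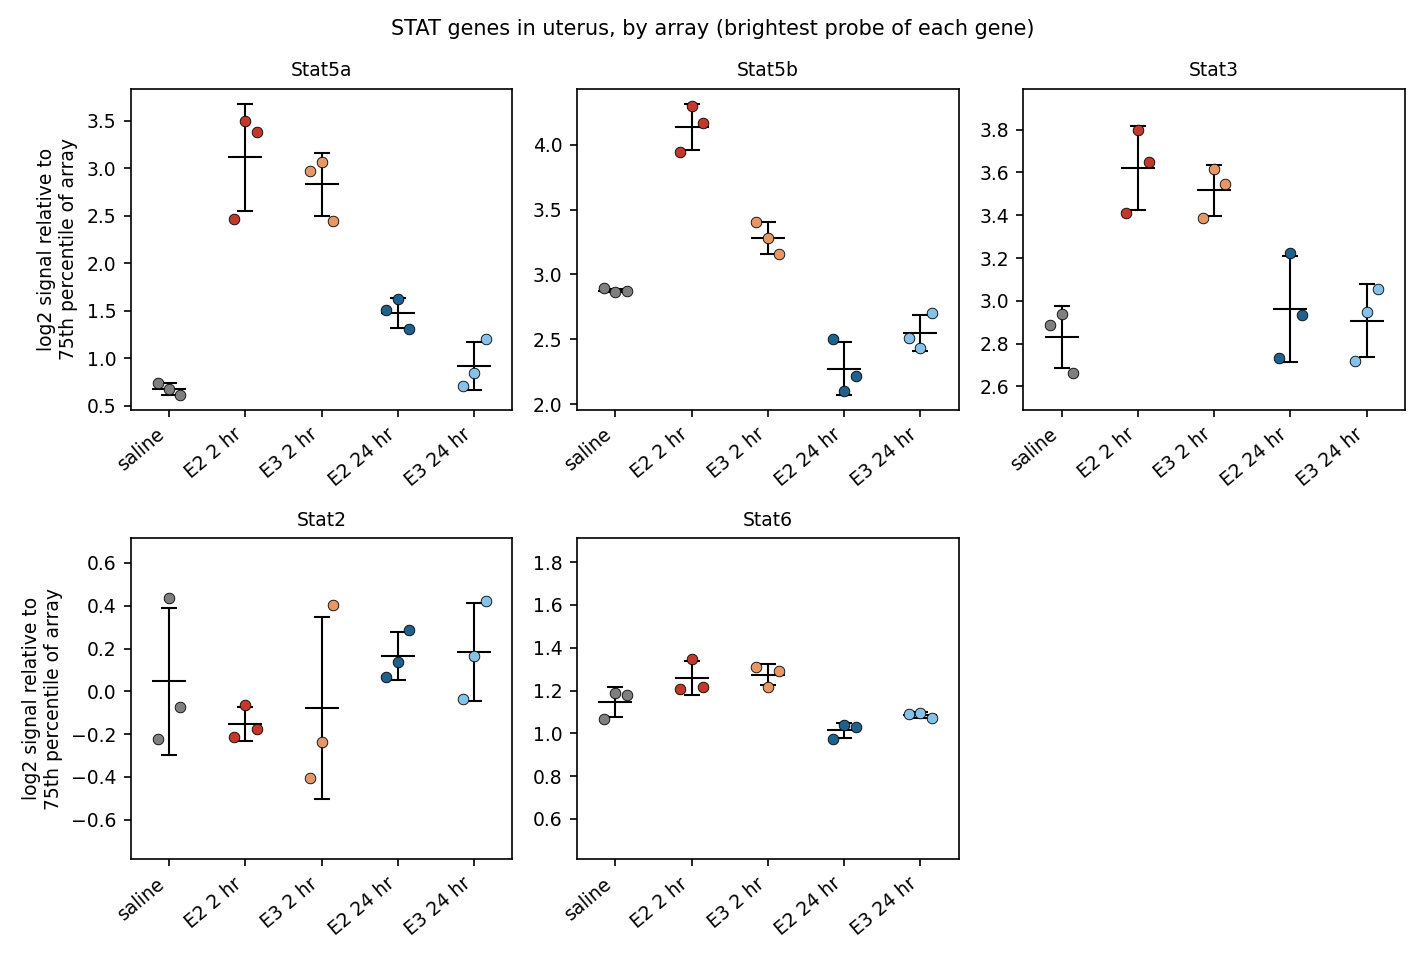
Level of the brightest probe of each STAT gene on each of the 15 arrays (log2 signal relative to the 75th percentile of the array; y axes differ between panels). Points are arrays, bars are the mean ± SD of 3 arrays per group; the 2 hr arrays of Stat5a, Stat5b and Stat3 lie above all saline arrays, and those of Stat2 overlap them.

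Stat3, the mediator of leukemia inhibitory factor and interleukin 6 signals, changed less on its brightest probe, which is printed in up to 10 copies on each array. Its levels were 2.89, 2.94 and 2.66 in saline, 3.41, 3.80 and 3.65 with E2 at 2 hr, and 3.39, 3.62 and 3.55 with E3 at 2 hr. All 2 hr arrays were above all saline arrays. The SD among the copies on an array was 0.0147 to 0.0367, which is spot noise and not the spread between samples. The changes of log2 0.79 (SE 0.145, limma adjusted p = 0.00047) with E2 and 0.69 (adjusted p = 0.00182) with E3 were under 2-fold and were not called. The levels at 24 hr, 2.73 to 3.22 with E2 and 2.72 to 3.05 with E3, overlapped saline.

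The second Stat3 probe, A_52_P569499, differed from the first in size and in time course. It was at -2.95, -2.91 and -2.99 in saline, -1.12, -1.10 and -0.93 with E2 at 2 hr, and -1.85, -1.76 and -2.07 with E3 at 2 hr. The 3 groups were separate, E2 being highest. The rise was log2 1.90 (SE 0.135, 3.74-fold, limma adjusted p = 2.25e-07) with E2 and 1.06 (2.09-fold, adjusted p = 4.11e-05) with E3, the latter 0.99 and below 2-fold without E3 2 hr replicate 2, the array with the highest pancreas marker sum. At 24 hr the E2 arrays, at -4.04, -3.60 and -3.88, were all below saline (log2 -0.89, adjusted p = 0.000122), whereas the first Stat3 probe was at 0.13 in the same comparison.

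Stat2, which acts in the response to type I interferon, and Stat6, which carries interleukin 4 and 13 signals, were called in no comparison. Stat2 lay at -0.22, 0.43 and -0.07 in saline and between -0.40 and 0.42 on all other arrays, so that all groups overlapped saline. The arrays with the 3 highest Stat2 levels were saline replicate 2, E3 2 hr replicate 3 and E3 24 hr replicate 3, at 0.43, 0.40 and 0.42. They also had the 3 highest lymphocyte marker sums, at 3.70, 4.30 and 3.37 against 2.76 or lower elsewhere. Their myeloid marker sums were the 3 highest too, at 4.43, 4.72 and 5.42 against 4.08 or lower elsewhere. Of the lymphocyte markers 9 of 10, and of the myeloid markers 10 of 10, were well above background on every array. The part of lymphocytes and myeloid cells in the Stat2 level was not tested. The brightest Stat6 probe was at 1.06, 1.19 and 1.18 in saline, 1.21, 1.35 and 1.22 with E2 at 2 hr, and 1.31, 1.22 and 1.29 with E3 at 2 hr. The 2 hr arrays were all slightly above saline, and its changes over saline lay between log2 -0.13 and 0.13 with an SE of 0.0675. The other 2 Stat6 probes, of which one is printed in 10 copies, differed from saline by -0.26 to 0.15.

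**Figure D2:**
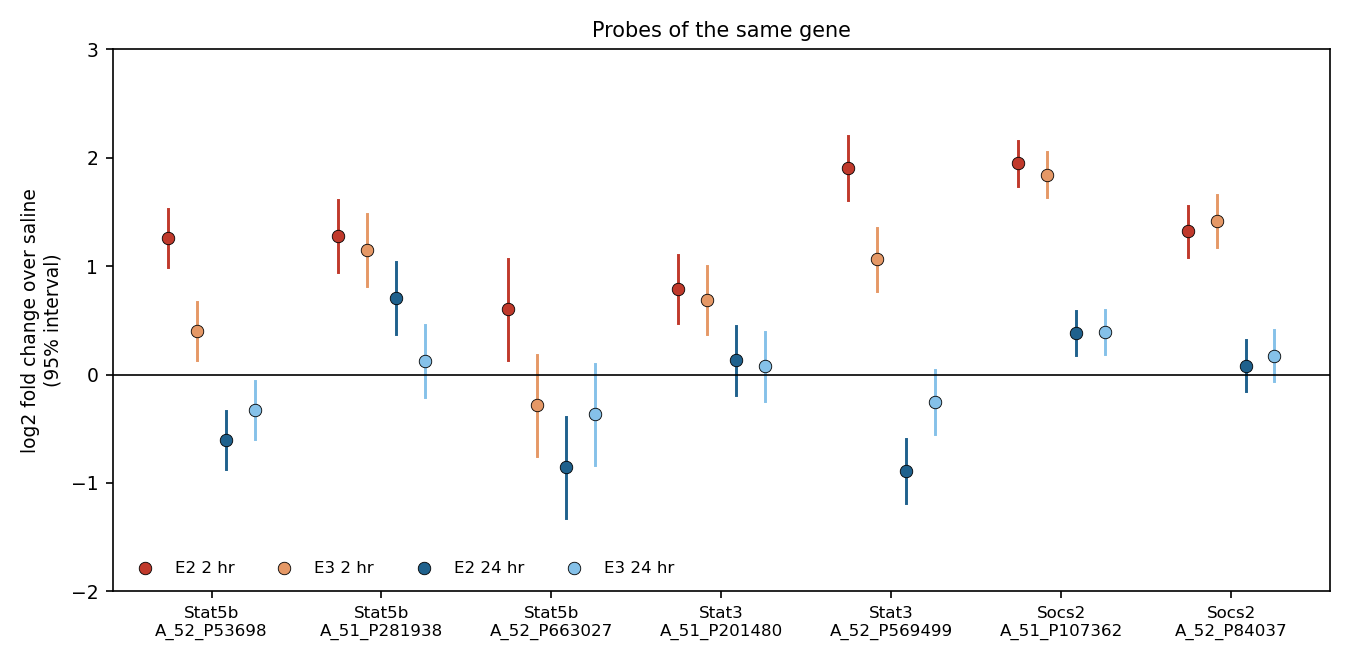
Log2 fold change over saline (y axis) with its 95% interval for each probe of the genes Stat5b, Stat3 and Socs2, for E2 and E3 at 2 and 24 hr (points are limma estimates from 3 arrays per group). Both Socs2 probes lie above saline at 2 hr with each compound, whereas the E2 24 hr change is 0.70 for one Stat5b probe and -0.60 and -0.85 for the others, and 0.13 against -0.89 for the Stat3 probes.

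Of the feedback inhibitors, Socs1, Socs3 and Socs2 rose at 2 hr with both compounds and Cish was not called. Socs1, whose protein blocks Janus kinases directly, was at 0.69, 1.06 and 0.59 in saline, 4.34, 4.72 and 4.65 with E2 at 2 hr, and 4.38, 4.31 and 4.08 with E3 at 2 hr. The 2 hr arrays were all far above saline, and the 2 compounds overlapped. Socs1 rose by log2 3.79 (SE 0.179, 13.8-fold, limma adjusted p = 1.36e-08) with E2 and by 3.48 (11.1-fold, adjusted p = 4.51e-08) with E3. By 24 hr it was at 0.67, 0.44 and 0.59 with E2 and 0.34, 0.49 and 1.01 with E3, within or near the range of saline. The 24 hr differences were -0.21 (95% interval -0.60 to 0.18) and -0.17 (-0.56 to 0.22).

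Socs3, the inhibitor of receptors that signal through gp130, ran in parallel to Socs1. Its levels were 1.90, 2.27 and 1.78 in saline, 5.28, 5.75 and 5.60 with E2 at 2 hr, and 5.21, 5.23 and 5.11 with E3 at 2 hr. Each E2 array was slightly above each E3 array, and all 6 were well above saline. The rise was log2 3.56 (SE 0.218, 11.8-fold, limma adjusted p = 7.44e-08) with E2 and 3.20 (9.20-fold, adjusted p = 3.25e-07) with E3. At 24 hr the levels of 1.90, 1.81 and 1.95 with E2 and 1.63, 1.54 and 2.48 with E3 overlapped saline, with a difference of -0.10 in both (95% intervals -0.57 to 0.38).

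Socs2, an inhibitor of growth hormone signaling, rose to a smaller extent. Its brightest probe was at 0.09, 0.33 and 0.23 in saline, 2.21, 2.24 and 2.03 with E2 at 2 hr, and 2.12, 1.93 and 2.13 with E3 at 2 hr. Both 2 hr groups were above saline and overlapped each other. The change was log2 1.95 (SE 0.0942, 3.86-fold, limma adjusted p = 1.49e-08) with E2 and 1.84 (3.59-fold, adjusted p = 4.32e-08) with E3. The second probe, A_52_P84037, was at -1.54, -1.38 and -1.36 in saline, -0.07, -0.09 and -0.16 with E2 at 2 hr, and 0.24, -0.16 and -0.10 with E3 at 2 hr. It showed the same separation of all 2 hr arrays from saline, and rose by 1.32 (2.50-fold, adjusted p = 7.59e-07) and 1.42 (2.67-fold, adjusted p = 8.61e-07). At 24 hr the brightest probe was at 0.54, 0.61 and 0.64 with E2 and 0.48, 0.67 and 0.67 with E3. Every one of these arrays was above saline, by log2 0.38 (adjusted p = 0.00375) and 0.39 (adjusted p = 0.00754), which was under 2-fold and not called. The second probe differed by 0.08 and 0.18 at that time.

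Cish, an inhibitor that is a classical target of Stat5, had the smallest difference from saline of the inhibitors at 2 hr, by their brightest probes. It was at 1.35, 1.45 and 1.23 in saline, 1.93, 1.91 and 2.17 with E2 at 2 hr, and 2.21, 2.02 and 2.34 with E3 at 2 hr. The 2 hr arrays were all above saline, and E2 and E3 overlapped. The changes of log2 0.66 (SE 0.137, limma adjusted p = 0.00112) with E2 and 0.85 (adjusted p = 0.000261) with E3 were under 2-fold and were not called. At 24 hr it was at 1.37, 0.88 and 1.19 with E2 and 1.66, 1.44 and 1.71 with E3, with differences from saline of -0.20 and 0.26 whose intervals included 0.

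**Figure D3:**
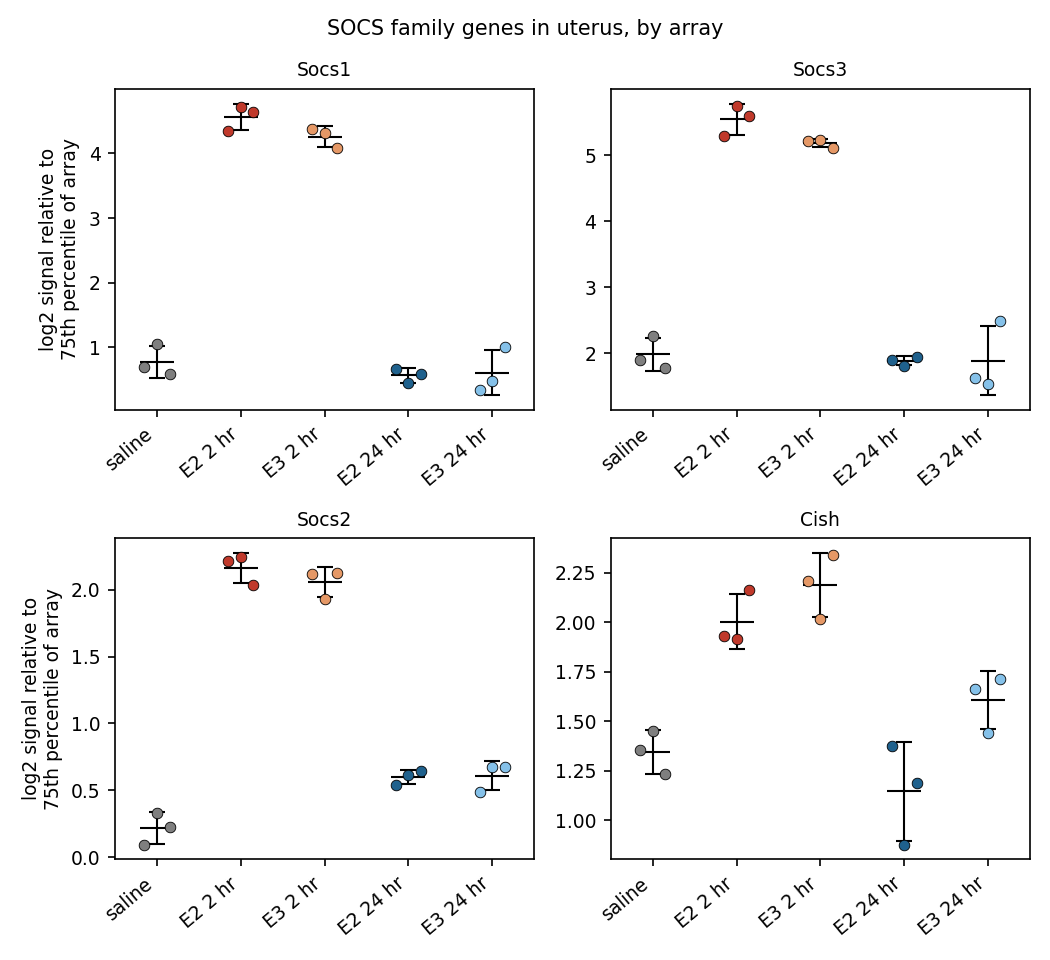
Level of the brightest probe of Socs1, Socs3, Socs2 and Cish on each of the 15 arrays (log2 signal relative to the 75th percentile of the array; y axes differ between panels). Points are arrays and bars the mean ± SD of 3 arrays per group; the 2 hr arrays lie above all others for Socs1, Socs3, Socs2 and Cish.

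None of the 15 probes was called at 24 hr with either compound, where 18.1% of all probes were called with E2 and 3.83% with E3 in either direction. At an unadjusted limma p under 0.05 there were 6 probes with E2 and 2 with E3, where 65% and 44.4% of all probes were that low, and 6 and 1 had an adjusted p under 0.05, against 61.3% and 34% of all probes. Without E2 24 hr replicate 2, the array with the pancreas marker sum of 8.14, 2 probes were called for E2, namely Stat3 A_52_P569499 at log2 -1.01 and Stat5b A_52_P663027 at -1.03. The median log2 change of the 9 genes was -0.10 with E2 and 0.08 with E3, against -0.06 and -0.01 over all probes.

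The fall between the 2 times was tested directly. From 2 to 24 hr of E2, 8 of 15 probes fell, where 17.4% of all probes fell, and with E3 7 of 15 fell, where 6.48% fell. The 2 and 24 hr arrays of E2 also differed in strain, slides, scanner and scan day, and those of E3 differed in slide. Socs1 dropped by log2 4.0 (16-fold) with E2 and by 3.65 (12.5-fold) with E3. Socs3 dropped by 3.66 (12.6-fold) and by 3.30 (9.85-fold), and Socs2 by 1.57 (2.96-fold) and by 1.45 (2.73-fold). Among the factors, Stat5a fell by 1.63 (3.1-fold, limma adjusted p = 7.01e-05) with E2 and by 1.91 (3.75-fold, adjusted p = 3.76e-05) with E3. The E2 call was lost, with the same fold, when only the 6 arrays of that comparison were fitted. Stat5b fell by 1.86 (3.64-fold, adjusted p = 5.81e-08) after E2, and its E3 difference of -0.73 (1.66-fold) was not called. The other Stat5b probes differed from it, A_52_P663027 being at -1.46 (called) with E2 and -0.08 with E3, and A_51_P281938 at -0.57 with E2 and -1.02 (2.03-fold, called) with E3. The latter call was lost without E3 2 hr replicate 2, E3 2 hr replicate 3 or E3 24 hr replicate 3, and held in the other 12 of 15 settings that left out 1 array. Stat3 A_52_P569499 fell by 2.79 (6.93-fold) with E2 and by 1.31 with E3, whereas the brightest Stat3 probe, at -0.66 and -0.61, was not called.

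**Figure D4:**
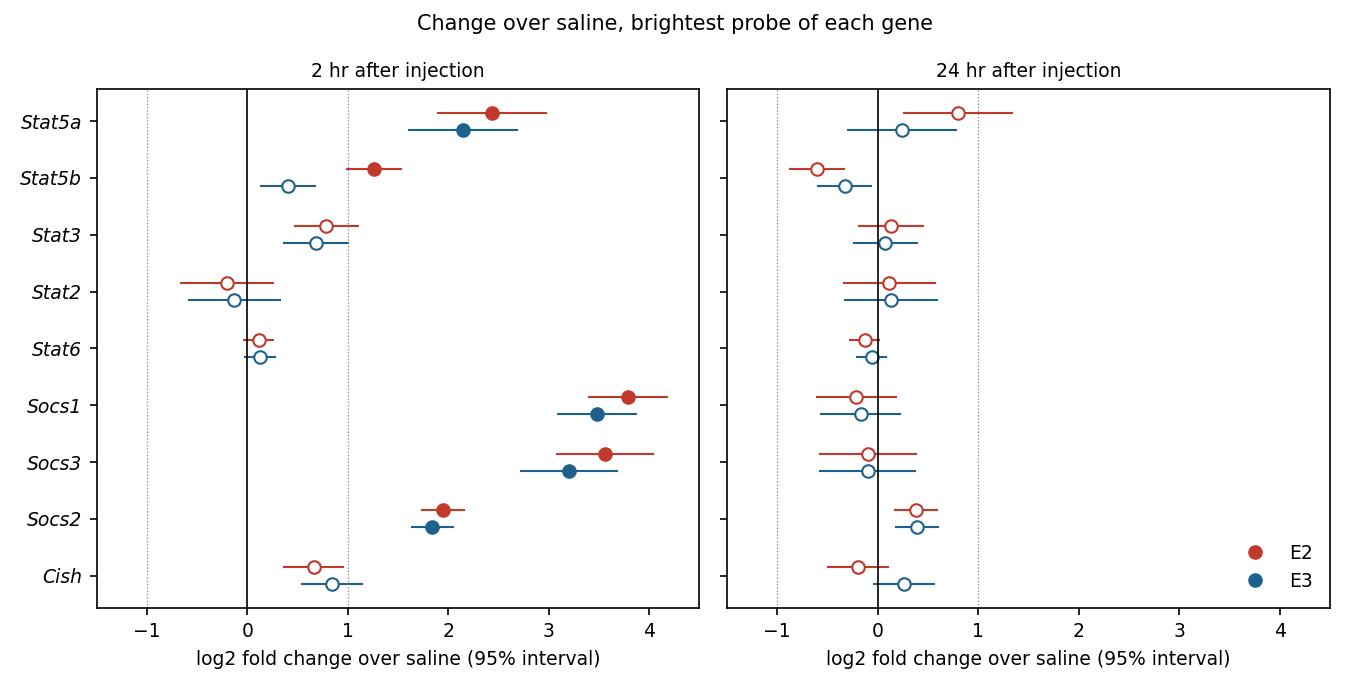
Log2 fold change over saline (x axis) with its 95% interval for the brightest probe of each of the 9 genes, 2 hr (left) and 24 hr (right) after E2 or E3. Filled points are called (p below 0.001 and 2-fold, dotted lines); 5 genes are filled for E2 and 4 for E3 at 2 hr, and none at 24 hr.

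E3 was compared with E2 directly at each time. No member probe was called at 2 hr, where 7.51% of all probes were called, or at 24 hr, where 4.85% were. At an unadjusted limma p under 0.05 there were 3 probes at 2 hr and 6 at 24 hr, where 51.5% and 45.5% of all probes were that low, and 3 had an adjusted p under 0.05 at each time, against 43.4% and 36.4%. The E3 minus E2 difference at 2 hr was -0.31 for Socs1 (95% interval -0.70 to 0.08), -0.36 for Socs3 (-0.83 to 0.11), -0.10 for Socs2 (-0.31 to 0.10) and -0.28 for Stat5a (-0.82 to 0.25). Each of these intervals included 0, and none excluded a difference of the size of its lower bound. The lower level after E3 was clearest for the brightest Stat5b probe, at log2 -0.86 (-1.12 to -0.59, 1.81-fold, adjusted p = 0.00018), and for Stat3 A_52_P569499, at -0.84 (1.79-fold, adjusted p = 0.000416), neither reaching 2-fold. The other unsplit Stat5b probe, A_52_P663027, was at -0.89 (adjusted p = 0.00564), whereas the split Stat5b probe differed by -0.13 (adjusted p = 0.508).

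At 24 hr the differences were of either sign. Cish was higher after E3 by log2 0.46 (95% interval 0.16 to 0.76, limma adjusted p = 0.02), with all 3 E3 arrays above all E2 arrays. Stat3 A_52_P569499 was higher after E3 by 0.64 (adjusted p = 0.00315), and Stat5b A_51_P281938 was lower (-0.58, adjusted p = 0.0109). Stat5a differed by -0.56 (-1.10 to -0.02, adjusted p = 0.0972), Socs1 by 0.04 and the Socs2 probes by 0.01 and 0.09, and the Socs3 difference was smaller than any of these.

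The change of the E3 minus E2 difference from 2 to 24 hr was called for 3 of 15 probes, all upward, where 11.3% of all probes were called upward. These were the brightest Stat5b probe (1.13, SE 0.173, limma adjusted p = 0.000271), Stat5b A_52_P663027 (1.37, adjusted p = 0.00294, called in only 4 of the 15 settings that left out 1 array) and Stat3 A_52_P569499 (1.48, adjusted p = 9.11e-05). The split Stat5b probe was at -0.45 (adjusted p = 0.11). Only Stat3 A_52_P569499 remained called with normexp background correction, or without the 3 arrays of highest lymphocyte marker sum, where Stat5b was at 0.95 and 1.00. This comparison rests on the E2 2 hr arrays, so strain, scanner, slides and scan day cannot be told apart from it.

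The rest of the pathway was read from lists of genes, by their brightest probes. Of the further family genes Stat4, Socs4, Socs5, Socs6 and Socs7, 0 of 5 were called at 2 or 24 hr. At 2 hr, 10.7% of all probes rose and 10.5% fell with E2, and 4.68% rose and 9.1% fell with E3. At 24 hr, 18.1% of all probes were called with E2 and 3.83% with E3. These 5 genes lay at 2 hr between log2 -0.53 and 0.91 with E2 (median 0.68) and between -0.13 and 0.81 with E3 (median 0.29), with 4 and 3 at an unadjusted limma p under 0.05. The 4 Janus kinases, which phosphorylate STATs, were not called, with 2 at an unadjusted limma p under 0.05 for E2 and 1 for E3 at 2 hr, where 65.3% and 55.1% of all probes were that low. The farthest of them from saline was Tyk2 with E2 at 2 hr, at -0.91 (adjusted p = 0.000772).

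Of 24 ligands tested, 2 rose with each compound at 2 hr, and 5 fell with E2 and 3 with E3, where 10.7% and 4.68% of all probes rose and 10.5% and 9.1% fell. Their median log2 change was -0.04 with E2 and 0.01 with E3. Il11, a gp130 cytokine needed for decidualization, was at -4.73, -5.12 and -5.12 in saline, -0.13, 0.58 and 0.21 with E2, and -1.65, -2.31 and -1.76 with E3 at 2 hr. All E2 arrays were above all E3 arrays, and these above saline. It rose by 5.21 (37.0-fold) and 3.08 (8.47-fold), and E3 was below E2 by log2 -2.13 (limma adjusted p = 1.16e-05). Csf3, the granulocyte growth factor, rose by 1.82 and 1.27, and Il15, a lymphocyte growth factor, fell by 2.05 and by 1.89. Tslp and Il7, both lymphoid cytokines, fell as well, at -1.80 and -1.78 with E2 and -2.17 and -1.16 with E3. At 24 hr of E2, Il11 was still raised, at 1.21 (adjusted p = 0.000246), and Clcf1, a gp130 cytokine, fell, at -1.37. Of 29 receptors none rose, and 2 fell with E2 and 1 with E3 at 2 hr, where 10.5% and 9.1% of all probes fell, and their median log2 change was -0.42 and -0.16. Il15ra fell with both, at -1.95 and -1.28, and Il6ra with E2, at -1.07. At 24 hr of E2, Lepr, the leptin receptor, was at -2.64 and Il7r at -1.81. These were the only receptor calls against saline at that time, where 18.1% of all probes were called with E2 and 3.83% with E3.

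Of 20 further negative regulators, 1 rose and 1 fell with E2 at 2 hr, and 2 rose and 0 fell with E3. Of all probes, 10.7% and 4.68% rose and 10.5% and 9.1% fell. Ptpn1, a phosphatase of Janus kinases, rose by 1.72 with E2 and 1.48 with E3 at 2 hr, while the median of the list was 0.14 with each. Pias3, an inhibitor of Stat3, fell with E2, at -1.10. Pim1, a kinase and STAT target, rose by 1.20 with E3, and its E2 value was 0.97, just under 2-fold. At 24 hr of E2, Cblb, a ubiquitin ligase, and Pim1 fell, at -1.18 and -1.06. They were the only 2 of the 20 called there, where 18.1% of all probes were called. Both Pim1 changes were relative to the same saline arrays. Of 14 textbook STAT targets, 7 rose with E2 and 2 with E3 at 2 hr, and none fell, where 10.7% and 4.68% of all probes rose. Their median log2 change was 1.02 with E2 and 0.80 with E3, against -0.07 and -0.11 over all probes. Junb, a component of AP-1, rose by 2.34 and 2.18, and Igf1, the growth factor that Stat5 controls in liver, by 1.08 and 1.13 at 2 hr and by 1.43 at 24 hr of E2. Several of these genes are also immediate early or estrogen targets, so the list is not specific to STATs. The list of 18 interferon response genes moved the other way with E2, where 8 fell and none rose (10.5% of all probes fell), and with E3 3 fell and 1 rose (9.1% of all probes fell). Their median log2 change was -1.07 with E2 and -0.14 with E3. Rsad2 and Ifit2, antiviral genes of the interferon response, were at -2.30 and -2.12 with E2 and -1.43 and -1.31 with E3. At 24 hr Oas1a, another antiviral gene, rose with both, at 1.38 and 1.20, and Oasl1, at -1.62 with E2 at 2 hr, was at 1.46 with E2 at 24 hr. Lymphocyte marker sums were 0.68 to 0.82 on the E2 2 hr arrays and 0.83 to 3.70 in saline. Myeloid marker sums were 2.53 to 3.25 and 2.99 to 4.43 on the same arrays. The part of these cells in the interferon response genes was not tested.

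The profiles of the members were set against those of 18638 genes over the 15 arrays, as a description in which the 5 groups supply most of the spread. The profile most like that of Socs3 was Ptpn1 (Pearson's r = 0.9954), followed by Gm711 (0.9944) and Il17ra (0.9938). Gm711 was also nearest to Socs1 (0.9952), followed by Slc41a1 (0.9943) and Il17ra (0.9941). For Socs2 it was Fos (0.9896), for Stat5a Mocs3 (0.9891) and for Stat5b Dgkd (0.9897). The nearest profiles were less close for Stat3 (1700127D06Rik, 0.9526), Stat6 (Krit1, 0.931), Cish (Entpd1, 0.9173) and Stat2 (Adam17, 0.9152). Between members, Socs1 and Socs3 correlated at 0.998, Socs2 with each at 0.97, and Stat5a with Stat5b at 0.781.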

How the data were processed

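Total RNA (500 ng per sample) was labeled with Cy3 and hybridized to one-color Agilent whole mouse genome arrays. Per the file headers, the authors extracted the deposited signals with Agilent Feature Extraction 9.5.3.1, which gave background-subtracted, detrended processed intensity values on a linear scale, with flags per spot. The series table that the authors deposited equals these intensity values (largest relative difference 0), so neither is scaled between arrays.

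Control spots and spots with outlier flags were left out (1893 over the 15 arrays), and spots of a probe were averaged. Each array's log2 values were centered on its 75th percentile. Probes that 2 or more arrays of any group measured well above background (34760, or 34751 for comparisons with E2 at 2 hr) were tested in limma 3.58.1 under R 4.3.3 over 9 comparisons, all 5 groups sharing 1 estimate of the spread (residual df 10, prior df 2.06). Calls needed p below 0.001 and 2-fold, and Benjamini-Hochberg adjustment ran over all tested probes. The comparison with saline recovered 93 to 95.5% of 200 changed probes in data simulated for the 4 treated groups (34296 probes), with 10 to 21 false calls. The members and all gene lists were chosen with earlier results of these data known. All members and all their probes are named, and the brightest probe over the 15 arrays stands for a gene; from the other lists, up to 3 called genes of largest change in each direction were named, besides Stat4, Socs4, Socs5, Socs6, Socs7, Tyk2 and some called genes (Pim1, Igf1, Oasl1), which were chosen after their values were seen. Likeness was Pearson's r to the brightest probe. Cell type marker lists (hepatocyte, exocrine pancreas, lymphocyte, myeloid, uterine epithelium, uterine stroma, smooth muscle, fat and skeletal muscle) were summed on the linear scale. Alternatives covered background correction, scaling, probe filters, thresholds, slide and replicate blocks, and left-out arrays. The number of arrays limits the precision. Promoter windows came from RefSeq (GRCm38.p6). Figures were drawn with matplotlib. Some genes of the pathway lists, and the list of Stat6 targets, are not reported here.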

Additional observations from a re-analysis of the deposited data

Results flagged for a closer look

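The brightest Stat5b probe differed in how the compounds compared at the 2 times. The E2 2 hr arrays stood apart in strain, slides, scanner and scan day, which cannot be told apart from this result. The E3 minus E2 difference was -0.86 at 2 hr and 0.28 at 24 hr, a change of 1.13 on the log2 scale (SE 0.173, limma adjusted p = 0.000271). It was called in all 15 settings that left out 1 array, but not with normexp background correction (0.95) or without the 3 arrays of highest lymphocyte marker sum (1.00). Of the 2 other Stat5b probes, A_52_P663027 gave 1.37, called in only 4 of those 15 settings, and A_51_P281938 gave -0.45.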

How the results depend on the processing

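Of 267 counts of called member probes under an alternative, 259 were equal to or within 1.5 times the count reported, and none of 2403 values of single genes changed sign while called. With normexp background correction 1 probe was called for the change of the E3 minus E2 difference from 2 to 24 hr, and 1 also without the 3 arrays of highest lymphocyte marker sum, an alternative chosen after seeing the data. At p below 0.001 with no minimum fold, there were 3 calls for E2 at 24 hr, 2 for E3 against E2 at 2 hr and 1 for that comparison at 24 hr, of 15 probes each, where 39.3%, 22.7% and 18.7% of all probes passed. With slide as a fixed block there were 4 for E3 at 2 hr, in a fit of 6 arrays. Without the 2 arrays of highest exocrine pancreas sum, also added after seeing the data, there were 2 calls for E2 at 24 hr. Leaving out 1 array gave 8 to 8 calls for E2 at 2 hr, 6 to 7 for E3 at 2 hr, 0 to 2 for E2 at 24 hr, 0 to 0 for E3 at 24 hr and for either direct comparison, 8 to 8 for E2 at 24 against 2 hr, 6 to 7 for E3 at 24 against 2 hr, and 2 to 3 for the change of the difference. The Stat5a call for E2 at 24 against 2 hr was lost, at the same log2 change of -1.63 (p 0.00112 in limma), when only the arrays of that comparison were fitted. Normexp moved the median of all probes for E3 at 24 hr from -0.01 to 0.30. Of same-number pairs of deviations, 10 of 30 correlated above 0.1, as did 17 of 60 pairs of different number. This gave no clear sign that replicate numbers pair the arrays and cannot exclude it. With the replicate block the counts were 8 and 7 at 2 hr and 0 and 0 at 24 hr, with no call changed. The causes of these changes were not tested. Some 60 values of single genes, uncalled under both settings, had the other sign.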
